A study of Mus musculus with 8 samples.

Results

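Lars2 encodes the mitochondrial leucyl-tRNA synthetase. Counts assigned to this gene stood far higher with both short hairpin RNAs against Hnrnpu than with their control hairpin, at 1648 and 598 CPM against 8.29 CPM. CPM are counts per 1000000 counts in genes, with each library's total adjusted by its TMM factor, the scale of all CPM below unless stated. The counts may include reads of other loci that share a stretch of its 3′ UTR, described below, which was not tested. Lars2 was studied with 9 other genes of mitochondrial aminoacyl-tRNA synthetases, to see whether it moved alone: Iars2, Mars2, Tars2, Vars2, Fars2, Nars2, Sars2, Wars2 and Yars2. These 10 genes are 10 of the 37620 gene IDs counted in each library, and all 10 passed the filter on low counts. The 9 were listed by name, and Lars2 was chosen by its measured rise in counts with both hnRNPU hairpins. Its hnRNPU values are therefore a description without a test.

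The RNA came from erythroid progenitors, cells on the way to red blood cells, sorted magnetically from fetal livers of C57BL/6 mouse embryos at E14.5 and kept for 24 h with erythropoietin. There were 8 libraries in 6 groups, all of that strain and stage, and no genotype other than the strain is given. The hnRNPU hairpins (2 libraries, a different hairpin in each) were compared with an hnRNPU control hairpin (1 library), and the Bloodlinc hairpins (2 libraries, again a different hairpin in each) with a Bloodlinc control hairpin (1 library). Hnrnpu encodes a nuclear RNA-binding protein and Bloodlinc is a long noncoding RNA. A Bloodlinc expression vector (1 library) was compared with an empty vector (1 library). The labels name no promoter for the vectors and do not say whether the libraries came from separate cultures. A p-value therefore covers the spread of these samples alone, which may be technical and includes differences between hairpins.

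An aminoacyl-tRNA synthetase joins one amino acid to the transfer RNAs that carry it. Mitochondria translate a small set of respiratory chain subunits from their own DNA, and they do so with a set of synthetases that are encoded in the nucleus, made in the cytosol and imported. Class I and class II synthetases have unrelated catalytic folds: the enzymes of Lars2 (leucine), Iars2 (isoleucine), Vars2 (valine), Mars2 (methionine), Wars2 (tryptophan) and Yars2 (tyrosine) belong to class I, and those of Tars2 (threonine), Fars2 (phenylalanine), Nars2 (asparagine) and Sars2 (serine) to class II. Developing red cells need mitochondria for heme synthesis and discard them late in maturation.

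The libraries with hnRNPU hairpins stood apart from all others. Counts in genes came to 2931627 and 2612916 with hnRNPU hairpins 1 and 2, while the 6 others held 23682993 to 34540691. Among uniquely placed counts, 89.7% and 86.6% lay outside genes with the hnRNPU hairpins, against 21.8% with the hnRNPU control and 21.7% to 30.1% over the 6 other libraries. A further 32.9% and 23.1% of the counts in genes fell on IDs absent from the annotation used here, led by ENSMUSG00000082697 and ENSMUSG00000045999, against at most 1.45% elsewhere. A count of 0, taken as 3 counts, allows up to 1.77 and 1.18 CPM with hnRNPU hairpins 1 and 2 and 0.0655 to 0.154 CPM in the 6 others, and such floors and all intervals below cover counting error only. The RNAs targeted by hairpins did not reach the threshold of 0.05: Hnrnpu stood at 325 and 373 CPM with its hairpins against 588 CPM with their control (adjusted p = 0.73, edgeR's quasi-likelihood test), and Bloodlinc at 2.19 and 1.75 CPM against 4.46 CPM (adjusted p = 1). Bloodlinc stood at 5.46 CPM with its vector and 1.26 CPM with the empty vector. In bulk RNA, fewer cells of a type and less RNA per cell cannot be told apart.

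Lars2 (ENSMUSG00000035202) lies on GRCm38 at chr9:123366927-123462666 on the plus strand. Its transcript Lars2-201 (3894 bases) carries, in the 3′ UTR and 373 bases past the last coding base, a stretch of 72 bases at chr9:123462048-123462119 of which 71 are shared with Gm15564-202. That is a transcript of Gm15564 (ENSMUSG00000086324), annotated as antisense on the minus strand of chromosome 16. Gm15564 was listed here among ribosomal and small structural RNA loci. The 72 bases contain an exact run of 52 and 1 substitution, A53T (Lars2 base first, positions counted from 1 at the 5′ end of the stretch in Lars2). The comparison given at that substitution is of Lars2-201 and Gm15564-202 alone. The 30 bases around it are shown because they hold the 1 base by which reads of this pair can be told apart there. They are read 5′ to 3′ from the GENCODE M21 transcripts, Lars2 from chr9:123462085-123462114 (plus strand) and Gm15564 from chr16:35981730-35981759 (minus strand), with the differing base in capitals.
Lars2: ggaacgtgagctgggAttagaccgtcgtga
Gm15564: ggaacgtgagctgggTttagaccgtcgtga
The search for other holders covered the GENCODE M21 transcripts of 55450 genes alone. Whether sequence outside these transcripts holds the stretch was not examined. Of the genes searched, 3 hold its first 30 bases in a transcript on the same strand, namely Lars2, Gm15564 and AA474408. The last (ENSMUSG00000073867) is a transcript model on chromosome 7. On the opposite strand, 0 of the genes hold these bases. Lars2 is the 1 gene of the 10 with them, and none of the other 9 shares any run of 20 or more bases with Gm15564. Counts of Lars2 and Gm15564 are therefore uncertain to the extent that the authors' alignment placed reads from this stretch.

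The raw counts of Lars2 were 2789 and 1518 with hnRNPU hairpins 1 and 2, against 316 in the much deeper control library. In CPM these are 1648 and 598 (mean 1123 ± 743, SD, n = 2) against 8.29. Per 1000000 counts in genes without TMM factors they are 951 and 581 against 9.34. Both hairpin libraries lay above every other library, since the 6 others ranged from 7.80 to 44.4 CPM. Hairpin 1 was 199-fold above the control (95% counting interval 177 to 224) and hairpin 2 was 72.1-fold above it (63.9 to 81.7), or 102-fold and 62.2-fold without TMM factors. The log2 fold change was 7.08, against a median of −0.09 over the 15355 genes tested, and 19 genes had a higher one, as Lars2 ranked 20. Of all genes tested, 6 others exceeded Lars2 in both hairpin differences, and 7 including Lars2 differed by 6 or more on the log2 scale with each hairpin.

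**Figure D1:**
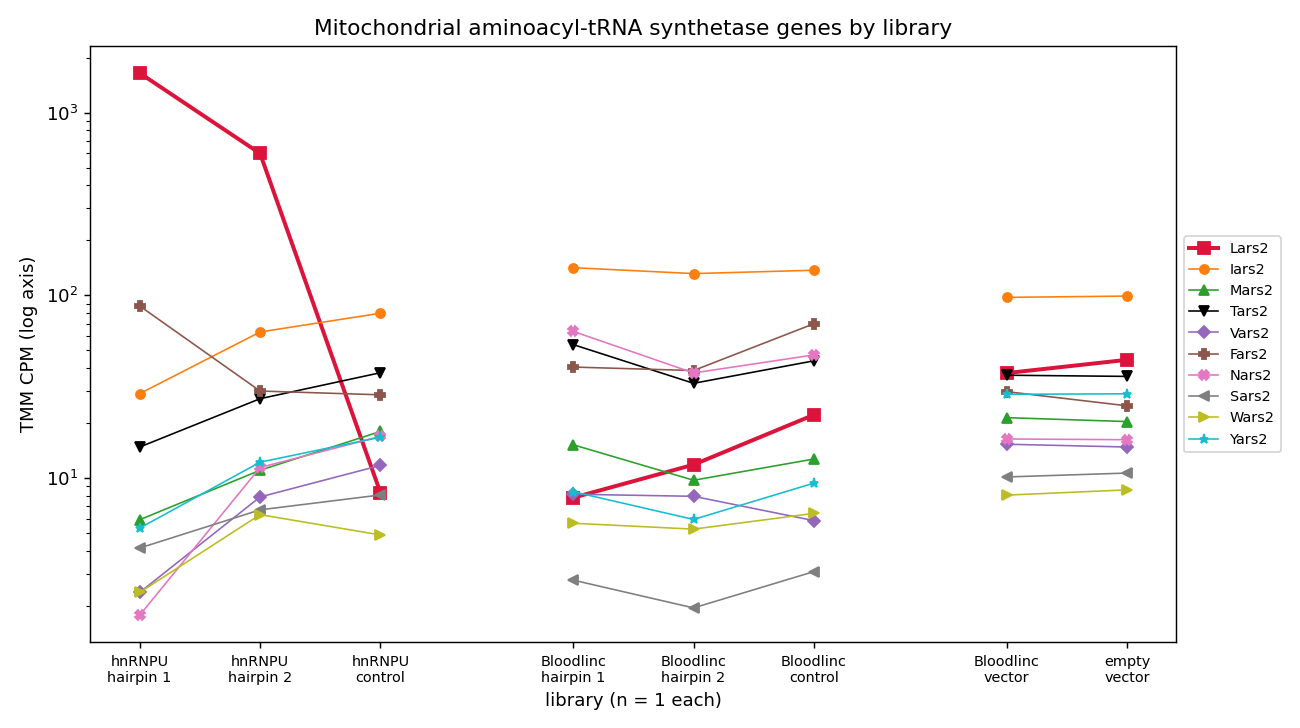
Level of each of the 10 genes in all 8 libraries, in TMM-scaled CPM on a log axis, 1 point per library, with hairpin or vector libraries left of their control. Lars2 stands at 1648 and 598 CPM with the hnRNPU hairpins and between 7.80 and 44.4 CPM in the other 6 libraries.

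Lars2 changed its place among the 10 genes. It held 91.5% and 77.3% of their summed counts with hnRNPU hairpins 1 and 2, against 3.59% with the control. The 9 others together stood at 153 and 176 CPM with the hairpins and 222 CPM with the control. Per kilobase of coding-transcript exons, Lars2 stood at 364 and 132 CPM per kb with the hnRNPU hairpins, where it ranked 1 of 10 in both libraries, against 1.83 CPM per kb and rank 8 with the control.

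Among the other class I genes, Iars2 stood at 29.0 and 63.0 CPM with hnRNPU hairpins 1 and 2 (mean 46.0 ± 24.1, SD, n = 2) against 79.9 CPM with the control. Both hairpin libraries lay below every other library, the control included, but the log2 fold change, −0.79 (SE 0.54), missed the threshold in edgeR (adjusted p = 0.69). Iars2 shares 2034 exon bases with Rab3gap2 on the opposite strand, and the strand setting of the counting is not given in the sources used here, so reads of the pair cannot be told apart. Rab3gap2 stood at 57.9 and 61.1 CPM with the hnRNPU hairpins and 65.8 CPM with the control. Mars2 stood at 5.91 and 11.03 CPM against 18.0 CPM with the control (log2 fold change −1.06, SE 0.63, adjusted p = 0.612 by edgeR). Vars2 stood at 2.36 and 7.88 CPM, on 4 and 20 counts, against 11.7 CPM (−1.14, SE 0.69, adjusted p = 0.631). It shares 465 exon bases with the antisense gene Gm20483, with the same limit on strand. Yars2 stood at 5.32 and 12.2 CPM against 16.7 CPM (−0.90, SE 0.63, adjusted p = 0.693). In all 4 of these genes both hairpins lay below the control and hairpin 1 lay lower than hairpin 2. Wars2 differed from that order, at 2.36 and 6.30 CPM on 4 and 16 counts against 4.88 CPM, so that the hairpins lay on either side of the control (−0.12, SE 0.78, adjusted p = 0.976).

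Among the class II genes, Tars2 stood at 14.8 and 27.2 CPM with hnRNPU hairpins 1 and 2 against 37.7 CPM with the control (log2 fold change −0.83, SE 0.55, adjusted p = 0.668 by edgeR). Nars2 had the lowest log2 fold change of the 10, −1.27 (SE 0.59, adjusted p = 0.45, unadjusted p = 0.0326). Its levels were 1.77 and 11.4 CPM against 16.9 CPM, on 3 and 29 counts with the hairpins and 644 with the control. At 3 counts, hairpin 1 gave a ratio of 0.105 to the control with a 95% counting interval of 0.0216 to 0.308. The result depends on the control library: against the Bloodlinc control hairpin, which held 47.2 CPM, Nars2 passed at −2.76 (adjusted p = 1.18e-04) and Iars2 at −1.57 (adjusted p = 0.0284). Sars2 stood at 4.14 and 6.70 CPM against 8.08 CPM (−0.55, SE 0.76, adjusted p = 0.862), and against the Bloodlinc control its sign turned, to 0.84.

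Fars2 was the 1 gene besides Lars2 with both hnRNPU hairpins above the control, but by little with hairpin 2. It stood at 87.5 and 29.9 CPM (mean 58.7 ± 40.7, SD, n = 2) against 28.5 CPM. Hairpin 1 was 3.06-fold above the control (95% counting interval 2.56 to 3.64) and hairpin 2 was 1.05-fold above it (0.82 to 1.32), or, without TMM factors, 1.57-fold above it and at 0.904 times its level. The log2 fold change, 1.03 (SE 0.57), missed the threshold (adjusted p = 0.57, edgeR) and became −0.26 against the Bloodlinc control. Fars2 shares 115 exon bases with Lyrm4 on the opposite strand, and Lyrm4 stood at 58.5 and 33.1 CPM with the hnRNPU hairpins against 25.3 CPM with the control.

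Of the 9 genes other than Lars2, 0 passed edgeR's test in the hnRNPU comparison, where 0.879% of all genes tested passed (135 of 15355, with 0.58% higher and 0.3% lower). DESeq2 and limma-voom also called 0, and 1 gene, Nars2, was below an unadjusted p of 0.05 by edgeR. The median log2 fold change of the 9 was −0.83, against −0.09 over all genes, and 8 of 9 were below 0, against 53.4% of all genes. The direction depends in part on scaling: with upper quartile scaling the median of all genes moved to 0.07, that of the 9 was −0.65, and 7 of 9 stayed below 0, as Wars2 turned positive. Without TMM factors the median of all genes was −0.63 and that of the 9 was −1.29, with 8 of 9 below 0. Both hairpins lay below the control in 7 of 9 genes, against 42.3% of all genes, and both above it in 1 of 9, against 29.8%. By hairpin, the median difference of the 9 was −1.46 with hairpin 1 and −0.45 with hairpin 2, where the medians over all genes were −0.28 and −0.12. Hairpin 1 lay below hairpin 2 in 8 of the 9. Lars2 and Fars2 were the 2 exceptions among the 10, with higher CPM with hairpin 1 than with hairpin 2. The 9 genes rest on 259 and 446 counts in all with the hnRNPU hairpins, against 8479 with the control.

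**Figure D2:**
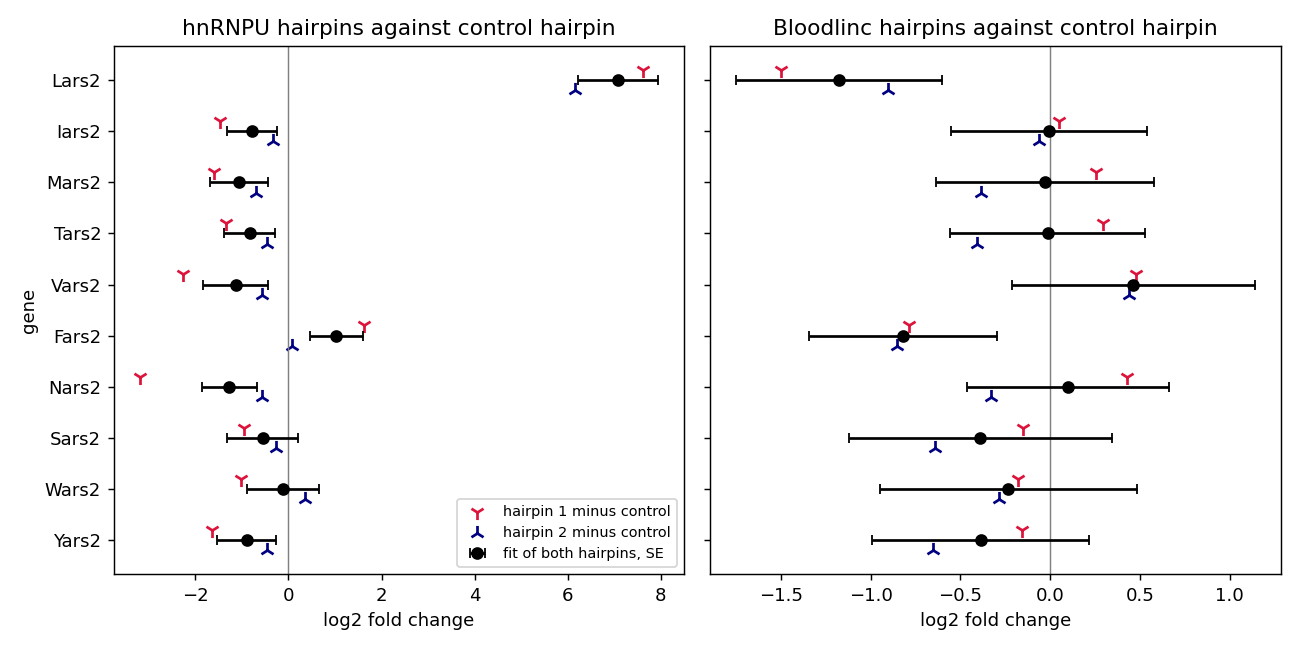
Log2 fold change of the 10 genes with the hnRNPU hairpins (left) and the Bloodlinc hairpins (right), with black points for the fit of both hairpins, bars for its SE, and red and blue marks for hairpins 1 and 2 minus their control. Lars2 lies 7.62 and 6.16 above the control with the hnRNPU hairpins, and the 9 others lie between −3.20 and 1.61 there.

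In the Bloodlinc comparison, which played no part in choosing Lars2, Lars2 was on the other side of its control. It stood at 7.80 and 11.8 CPM with Bloodlinc hairpins 1 and 2 (mean 9.82 ± 2.85, SD, n = 2) against 22.2 CPM with the control. Both hairpins lay below that control. The log2 fold change, −1.17 (SE 0.57), missed the threshold in edgeR (adjusted p = 1, unadjusted p = 0.0416), and against the hnRNPU control hairpin, which held 8.29 CPM, it became 0.25.

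Of the 9 others, 0 passed in the Bloodlinc comparison by edgeR, DESeq2 or limma-voom, where 0.124% of all genes tested passed by edgeR (19 of 15355, with 0.0977% higher and 0.0261% lower). Every adjusted p by edgeR was 1, and 0 of the 9 had an unadjusted p under 0.05. Their median log2 fold change was −0.029, against 0.055 over all genes, and 7 of 9 were below 0, against 44.6% of all genes. This side depended on scaling, since 5 of 9 were below 0 with the 20 most abundant genes left out and 3 of 9 without TMM factors, where the median was 0.31 against 0.42 over all genes. Iars2 stood at 142 and 132 CPM with the Bloodlinc hairpins against 137 CPM with the control, a log2 fold change of −0.0063. The widest difference among the 9 was that of Fars2, at 40.5 and 38.8 CPM against 69.96 CPM (−0.82, SE 0.53), which became 0.47 against the hnRNPU control. Vars2 had the highest value, 0.46 (SE 0.68), at 8.15 and 7.94 CPM against 5.84 CPM. Both hairpins were below the control in 4 of 9 genes and above it in 1, against 30.7% and 31.5% of all genes. The hnRNPU effect minus the Bloodlinc effect was also tested in the same fit, and 0 of the 9 passed by edgeR, the 1 tool run for it, with 1 at an unadjusted p under 0.05, where 0.326% of all genes passed (50). The widest of these differences was 1.85 for Fars2 (adjusted p = 0.828).

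With 1 library in each arm, the Bloodlinc vector allowed values and counting intervals but no test. Lars2 stood at 37.6 CPM with the Bloodlinc vector and 44.4 CPM with the empty vector, a log2 difference of −0.24 (95% counting interval −0.34 to −0.15). Fars2 stood at 29.7 CPM with the Bloodlinc vector and 24.8 CPM with the empty vector, a difference of 0.26 (0.14 to 0.38). The intervals of the 8 others included 0, from Wars2 at −0.09 to Mars2 at 0.07, and none of the 10 differed by 2-fold, as 1.75% of all genes tested did (0.371% higher and 1.38% lower). The difference of Lars2 between the vectors was small beside its spread over control libraries: the empty vector, the Bloodlinc control and the hnRNPU control held 44.4, 22.2 and 8.29 CPM, a 5.35-fold range, where the 9 others had ranges of 1.22-fold to 3.46-fold.

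Across these 3 control libraries, levels per kilobase ran from Fars2 at 17.5 ± 10.7 CPM per kb (SD, n = 3) and Iars2 at 15.8 ± 4.38, through Tars2 at 7.96 ± 0.835, Nars2 at 6.45 ± 4.27, Yars2 at 5.82 ± 3.13 and Lars2 at 5.50 ± 4.01, to Sars2 at 3.89 ± 2.06, Vars2 at 2.44 ± 1.03, Mars2 at 1.51 ± 0.347 and Wars2 at 1.504 ± 0.426. Neighbours in this order lay closer together than the SD of at least one of the pair, except Iars2 and Tars2. The order is that of the mean over the controls, and Lars2 ranked 3, 5 and 8 in the empty vector, Bloodlinc control and hnRNPU control libraries.

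The amount of Lars2 was also set against the counts outside genes, because those made up most of the uniquely placed counts with the hnRNPU hairpins. Scaled to these instead, as counts per 1000000 counts outside genes, Lars2 stood at 109 and 89.2 with hnRNPU hairpins 1 and 2 against 33.3 with the control. On the same scale it stood at 23.3 and 40.1 with the Bloodlinc hairpins against 65.4 with their control, and at 131 with the Bloodlinc vector against 133 with the empty vector. The hnRNPU hairpin libraries thus lay inside the range of the 6 other libraries on this scale, and far outside it in CPM. The 9 other genes lay lower on this scale, at 0.117 to 5.79 and 0.94 to 9.40 with the hnRNPU hairpins, against 19.6 to 320.4 with the control. Counts outside genes per count in genes were 8.72 and 6.51 with the hnRNPU hairpins against 0.281 with the control. The scale therefore lowers any gene without a strong rise in CPM. Fars2, higher in CPM, also fell, at 5.79 and 4.46 against 114.5, so the fall is no result about the 9. The part that counts outside genes play in the level of Lars2 was not tested.

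**Figure D3:**
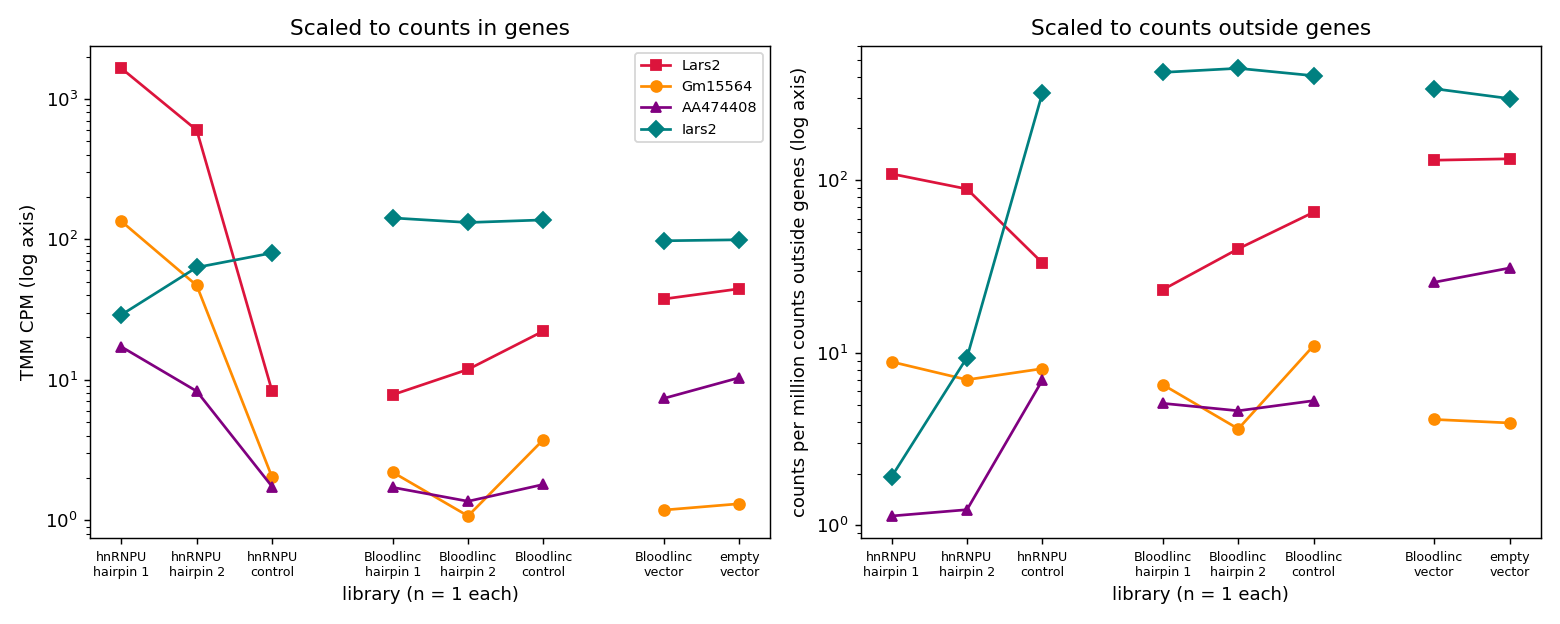
Lars2, Gm15564, AA474408 and Iars2 in the 8 libraries on 2 scales, CPM in genes and the same count scaled to counts outside genes, both on log axes, 1 point per library. In CPM both hnRNPU hairpin libraries lie above the other 6 for Lars2 and Gm15564, but not for AA474408 and Iars2. Scaled to counts outside genes, Lars2 lies at 109 and 89.2 with the hnRNPU hairpins and at 23.3 to 133 in the others.

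Gm15564, which shares the stretch with Lars2, stood at 134 and 46.9 CPM with the hnRNPU hairpins, on 227 and 119 counts, against 2.02 CPM on 77 counts with the control. Its log2 fold change of 5.48 (SE 0.78) passed edgeR's test (adjusted p = 1.52e-08). The call was lost in 2 alternatives: without hairpin 1 the log2 fold change was 4.53 (adjusted p = 0.267), and with every library thinned to the shallowest it was 5.46 (adjusted p = 0.118). Like Lars2, it lay lower with the Bloodlinc hairpins, at 2.19 and 1.07 CPM against 3.74 CPM (−1.21, SE 0.59, adjusted p = 1). With the vectors it parted from Lars2, at 1.18 CPM with the Bloodlinc vector and 1.31 CPM with the empty vector, the libraries outside the hnRNPU hairpins where Lars2 was highest. Counts of Lars2 per count of Gm15564 were 12.3 and 12.8 with the hnRNPU hairpins against 4.10 with their control, 3.56 and 11.1 with the Bloodlinc hairpins against 5.93, and 31.8 with the Bloodlinc vector against 34.0 with the empty vector. Scaled to counts outside genes, Gm15564 stood at 8.88 and 6.99 with the hnRNPU hairpins against 8.10 with the control. AA474408 was the other locus found with the shared bases among the transcripts searched. It stood at 17.1 and 8.27 CPM on 29 and 21 counts against 1.73 CPM (log2 fold change 2.85, SE 0.87, adjusted p = 0.0932 by edgeR). With the empty vector it stood at 10.3 CPM, above hairpin 2. Scaled to counts outside genes it lay lower with the hnRNPU hairpins, at 1.13 and 1.23 against 6.95 with the control. How many reads of these loci fall in the shared stretch cannot be read from counts per gene, and its part in the values of Lars2 was not tested.

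The genes next to Lars2 on chromosome 9 did not share its level. Of the 4 nearest protein-coding genes on each side, 6 were tested, and 0 passed by edgeR, DESeq2 or limma-voom in either knockdown, with 1 (Limd1) at an unadjusted p under 0.05 by edgeR in the hnRNPU comparison. Limd1, the closest at 16.04 kb past the end of Lars2, encodes a LIM domain protein and stood at 15.4 and 31.5 CPM with the hnRNPU hairpins against 49.9 CPM with the control (log2 fold change −1.07, SE 0.54, adjusted p = 0.495). Sacm1l, a phosphoinositide phosphatase gene 67.1 kb away, stood at 39.6 and 36.6 CPM against 33.7 CPM (0.18, SE 0.55, adjusted p = 0.944). Exosc7, an RNA exosome subunit gene on the other side at −230.8 kb, stood at 5.32 and 14.6 CPM against 19.5 CPM (−0.94, SE 0.60, adjusted p = 0.661). Tmem158, Slc6a20b and Slc6a20a had at most 6 counts in an hnRNPU hairpin library, and Clec3b and Cdcp1 did not pass the filter.

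**Figure D4:**
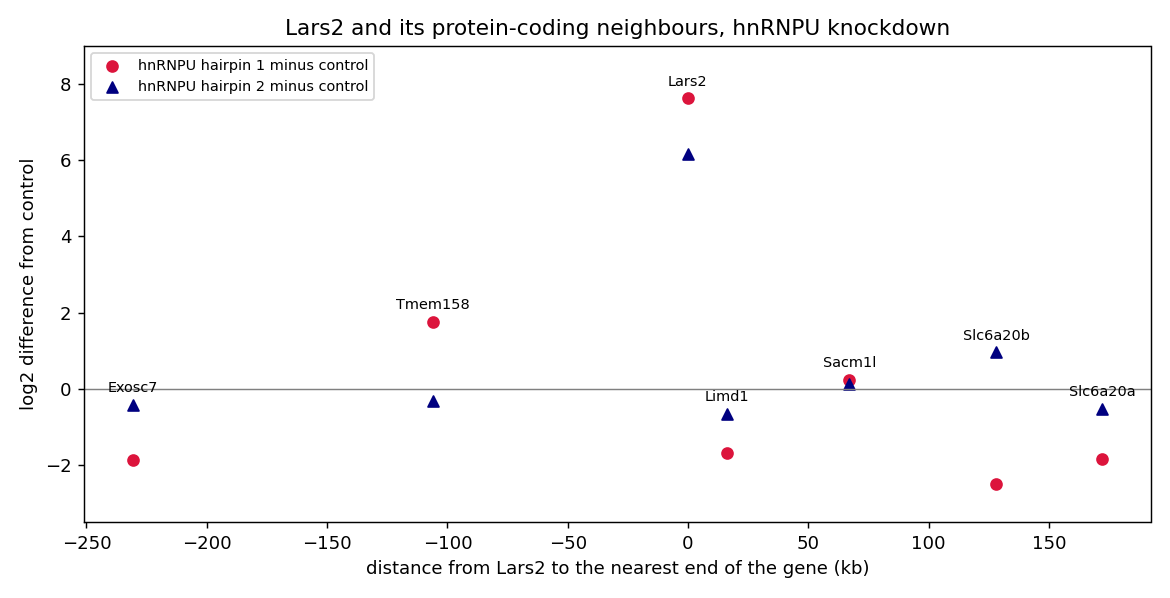
Log2 difference from the control with hnRNPU hairpin 1 (circles) and hairpin 2 (triangles) for Lars2 and its 6 tested protein-coding neighbours, by distance from Lars2 in kilobases. Lars2 lies at 7.62 and 6.16, the neighbours between −2.50 and 1.75, and Slc6a20b has 0 counts with hairpin 1, so that its lower point depends on the prior count.

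The genes whose pattern was most like that of Lars2 were sought by Pearson's r of log2 CPM over the 8 libraries, among 8632 genes with a mean of at least 5 CPM. The highest was ENSMUSG00000093098, which the annotation used here does not hold (r = 0.986), followed by Pag1 (0.971), an adaptor protein gene, Pde3b (0.967), a phosphodiesterase gene, and Capg (0.967), the gene of an actin-capping protein. Map7d2 (0.964), Mcu (0.951), the mitochondrial calcium channel gene, Gm27626 (0.947) and Maml3 (0.945) came next. These values rest largely on the hnRNPU hairpin libraries, and over the 6 other libraries r was 0.852, 0.667, 0.826, 0.705, 0.582, 0.576, 0.225 and 0.559 in the same order. Pde3b stood at 205 and 76.0 CPM with the hnRNPU hairpins against 17.1 CPM with the control, and Mcu at 23.6 and 17.3 against 10.5 CPM. Gm15564 had r = 0.907 over 8 libraries and −0.27 over 6. Among the other synthetases, r with Lars2 over 8 libraries was −0.88 for Tars2, −0.87 for Iars2, −0.85 for Nars2, −0.63 for Mars2, −0.60 for Vars2, −0.48 for Wars2, −0.21 for Yars2, 0.19 for Sars2 and 0.37 for Fars2. Over the 6 libraries without the hnRNPU hairpins most of these values moved far or changed sign. They were −0.40 for Tars2, −0.20 for Iars2, −0.52 for Nars2, 0.47 for Mars2, 0.48 for Vars2, 0.949 for Wars2, 0.69 for Yars2, 0.57 for Sars2 and −0.20 for Fars2. All libraries share the depth differences given above, so these values describe the libraries and carry no test.

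The rest of the machinery that Lars2 works with was counted from lists of named genes. In the hnRNPU comparison, 8 lists held 166 tested genes of mitochondrial translation, tRNA and DNA upkeep, stress chaperones and the cytosolic synthetases. Of these 0 of 166 passed by edgeR, DESeq2 or limma-voom, where 0.879% of all genes passed by edgeR. At an unadjusted p under 0.05 were 21, 7 and 9 of them (12.7%, 4.22% and 5.42%), against 9.89%, 8.08% and 11% of all genes by the same tools. All 46 tested genes of the large mitochondrial ribosome subunit had a log2 fold change below 0 (median −0.85), as had 30 of 31 of the small subunit (−0.80). Mrpl18 stood at 21.9 and 51.2 CPM with the hnRNPU hairpins against 76.7 CPM with the control (−1.06, SE 0.53, adjusted p = 0.497). The 12 other genes for charging mitochondrial tRNA, among them Gars and Kars, which serve both compartments, and the amidotransferase genes Qrsl1, Gatb and Gatc, were all below 0 (median −0.58), with Kars at 41.4 and 89.4 CPM against 120.8 CPM. Of 21 genes of the cytosolic synthetases and of proteins of their complex that charge no tRNA (Aimp1, Aimp2 and Eef1e1), 19 were below 0 (median −0.75), and Nars, the cytosolic counterpart of Nars2, stood at 517 and 323 CPM against 394 CPM. Translation factors (13 of 14, median −0.60), tRNA processing enzymes (19 of 21, −0.50), DNA upkeep and transcription genes (10 of 13, −0.50) and mitochondrial stress chaperones (8 of 8, −0.86) lay on the same side. The median of all genes was −0.09 and 53.4% of them lay below 0. With upper quartile scaling these 8 list medians all stayed below 0, from −0.68 for the stress chaperones to −0.32 for DNA upkeep and transcription, and the genes below 0 became 44 of 46 in the large subunit, 28 of 31 in the small subunit, 11 of 12 among the other charging genes and 7 of 8 chaperones. Gfm1, a mitochondrial elongation factor gene, stood at 20.7 and 46.1 CPM against 59.8 CPM, Tfam, the mitochondrial DNA packaging factor gene, at 14.8 and 17.3 against 28.7 CPM, and Hspa9, the gene of the matrix Hsp70, at 208 and 230 against 264 CPM.

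RNA made in the mitochondrion itself gave 0 calls by edgeR, DESeq2 or limma-voom, and 0 genes at an unadjusted p under 0.05 by edgeR. Of 13 mitochondrial mRNA genes 12 were tested, with 4 below 0 and a median of 0.22 (10 below 0 and −0.36 without TMM factors), and mt-Co1, a cytochrome oxidase subunit gene, stood at 7460 and 4573 CPM with the hnRNPU hairpins against 4492 CPM with the control. Of 22 mitochondrial tRNA genes 13 passed the filter, with 8 below 0 and a median of −0.28. Of all 22, 14 had 0 counts with each hnRNPU hairpin and 4 with the control, so several of the 13 lay at the floor of these libraries. The tRNA that LARS2 charges includes the product of mt-Tl1, counted 3 and 11 times with the hnRNPU hairpins and 209 times with the control, or 1.77 and 4.33 CPM against 5.48 CPM (log2 fold change −0.79, SE 0.81, adjusted p = 0.812). Among ribosomal and small structural RNA loci, 6 of 15 were in the files and tested, and Gm15564 was the 1 that passed. Of 12 tested genes of the amino acid stress response, 0 passed by edgeR and 1 by DESeq2, with 4 at an unadjusted p under 0.05 by edgeR. They lay on both sides, with 6 of 12 below 0 and a median of 0.02, which became −0.04 with the 20 most abundant genes left out and −0.64 without TMM factors. The highest log2 fold changes were 1.84 for Atf5, 1.76 for Trib3, 1.31 for Ddit3 and 1.22 for Sesn2, and the lowest were −1.17 for Phgdh and −1.04 for Shmt2. Atf4, its main transcription factor gene, stood at 377 and 336 CPM against 402 CPM, and Asns, an asparagine synthetase gene that ATF4 drives, at 202 and 313 against 464 CPM (−0.85, SE 0.60, adjusted p = 0.698).

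In the Bloodlinc comparison 0 of the same 166 genes passed by edgeR, DESeq2 or limma-voom, and 0 had an unadjusted p under 0.05, against 3.99% of all genes by edgeR. The list medians lay between −0.18 for DNA upkeep and transcription and 0.13 for translation factors, and were all above 0 without TMM factors, at 0.20 and 0.51 for the same lists.

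**Figure D5:**
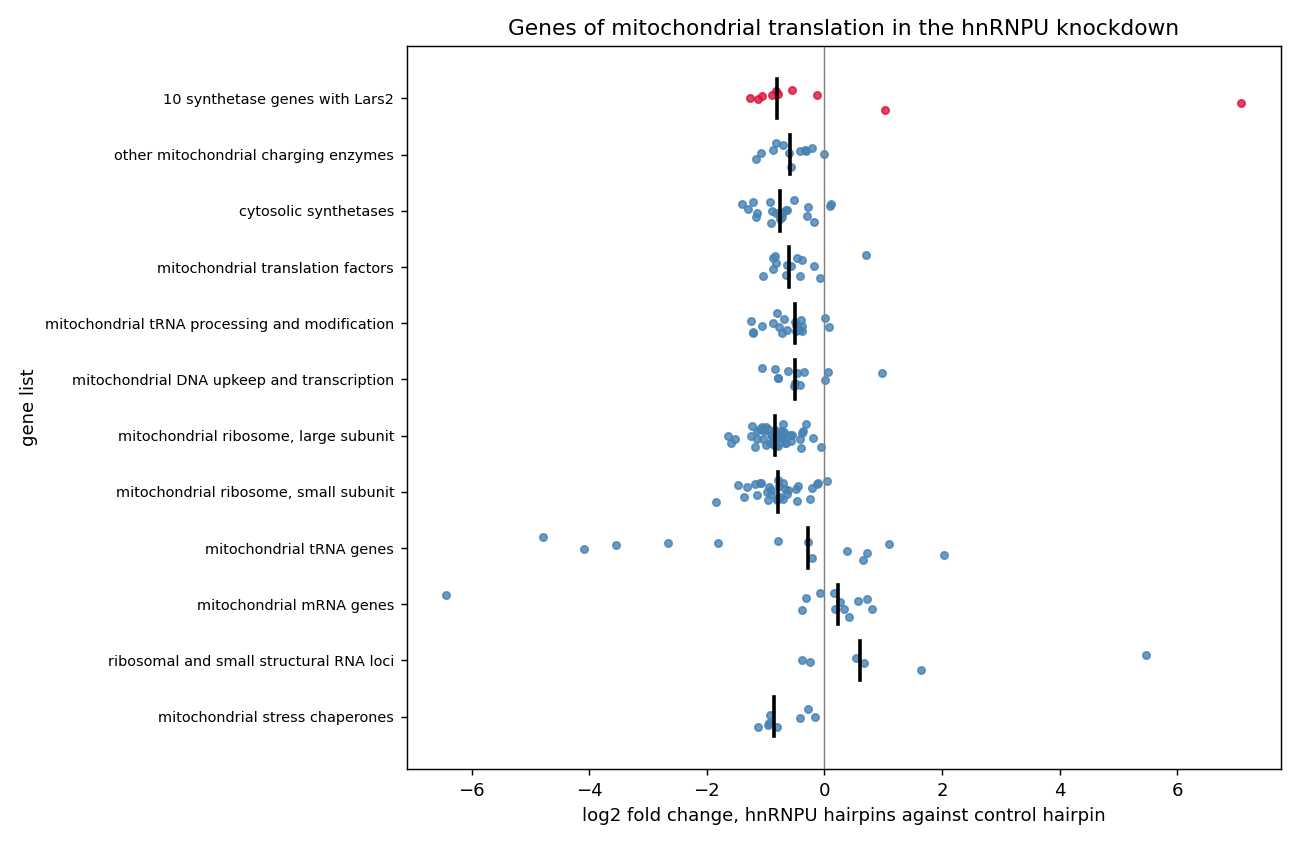
Log2 fold change of each tested gene with the hnRNPU hairpins, 1 point per gene, for the 10 synthetase genes (red) and 11 lists of named genes (blue), with each list median as a bar. Lars2 lies at 7.08 and the 46 genes of the large mitochondrial ribosome subunit lie below 0 (44 with upper quartile scaling), with a median of −0.85.

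Of the markers of cells other than erythroid ones, only 2, both of granulocytes, passed by edgeR with the hnRNPU hairpins. The erythroid markers were present in every library and summed to 46338 and 27498 CPM with the hnRNPU hairpins against 33226 CPM with the control. Of 9 tested 0 passed by edgeR, DESeq2 or limma-voom, with 3 at an unadjusted p under 0.05 by each. The sum is carried by a few abundant genes, and 5 of 9 were below 0 (median −0.06). Epor, the erythropoietin receptor gene, had a log2 fold change of −1.76, Klf1 −1.57, Tfrc, the transferrin receptor gene, −1.38 and Gata1 −0.93, while Hba-a1, an alpha globin gene, had 0.92. Slc4a1 and Hbb-bt lay near 0, at −0.06 and 0.16. With the 20 most abundant genes left out, 4 erythroid markers were tested, with a median of −1.29, and without TMM factors 7 of 9 were below 0. The 8 granulocyte markers summed to 9254 and 3415 CPM against 1591 CPM, all 8 had a log2 fold change above 0 (5 of 8 without TMM factors), and 2 passed, Ngp (2.73, SE 0.68, adjusted p = 0.0151) and Ltf (2.71, SE 0.67, adjusted p = 0.0136), both neutrophil granule proteins. Of all genes tested, 0.58% passed in that direction and 53.4% lay below 0. Limma-voom called 0 of these 8 and DESeq2 called 3. The 8 macrophage markers summed to 1548 and 474 CPM against 237 CPM and 0 passed by edgeR, DESeq2 or limma-voom, with 1, 2 and 3 at an unadjusted p under 0.05. Most of each macrophage sum came from 1 gene, Lyz2, a lysozyme gene, at 1472 and 443 against 216 CPM (2.15, SE 0.65, adjusted p = 0.0932 by edgeR). Of 8 hepatocyte markers, 5 were tested, with 3 below 0 and a median of −2.66. These 5 summed to 1.77 and 0.788 CPM against 0.393 CPM, near the floor of these libraries. Of all 8, 6 and 5 had 0 counts with hairpins 1 and 2, and 3 with the control. Of 7 megakaryocyte and 5 mast cell markers tested, 0 passed by these tools, 0 and 1 had an unadjusted p under 0.05 by edgeR, and their medians were 0.62 and 1.11. The part of these cells in the levels of Lars2 was not tested. With the Bloodlinc hairpins the granulocyte markers summed to 41.3 and 52.8 CPM against 100.5 CPM with the control, and the erythroid markers to 29514 and 22500 CPM against 50541 CPM, and 0 genes of any marker list passed by edgeR, DESeq2 or limma-voom. By edgeR, 5 granulocyte, 2 mast cell, 1 erythroid and 1 macrophage marker had an unadjusted p under 0.05 there.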

How the data were processed

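Strand-specific libraries of total RNA without ribosomal RNA were made by dUTP marking and run on a HiSeq2000, per the labels' protocols. The submitters' processing notes name TopHat2 2.0.11, HTSeq and the build mm9, and the authors deposited raw counts per Ensembl gene ID for each library. For HTSeq, the version, annotation and strand setting are not given in the sources used here. The 5 summary entries, among them the counts outside genes, were kept out of library sizes and tests.

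GENCODE M21 on GRCm38 gave symbols for 87.4% of the IDs, transcript sequences, exon lengths and positions, which were not used for counting; 11 of 288 list entries had no match. Promoter and protein sequences were not used here.

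The 8 libraries were fitted together in edgeR 4.0.16 (R 4.3.3) with TMM scaling. After filterByExpr, 15355 genes were tested by quasi-likelihood with Benjamini-Hochberg adjustment over all of them, at a threshold of 0.05. The 2 residual degrees of freedom come from the hairpin pairs, and each single control is assumed to vary like them. The fit added 397 prior degrees of freedom shared over genes. SEs and p-values thus rest mainly on a spread pooled over genes. SEs were taken as the log2 fold change over the square root of F. A prior count of 2 entered log2 differences of single libraries. For the vectors, 95% exact conditional binomial intervals of the count ratio were computed, and likewise for single hairpins. The fit was tested on simulated data.

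The 10 genes and the lists were chosen with earlier results of these data known. The text names the 10 genes, up to 2 genes of each list (those that passed with the largest change in a direction, else those with the highest mean CPM), the 4 nearest protein-coding genes on each side of Lars2, and the 8 genes with the highest r. Besides them, the targeted genes, AA474408 (shared bases), Rab3gap2, Lyrm4 and Gm20483 (overlapping exons), 5 erythroid markers, 6 amino acid stress genes and proteins of the tRNA charging complexes are named, chosen after their values were seen. Alternatives were DESeq2 1.42.0, limma-voom (limma 3.58.1), other scalings, filters and controls, robust estimation, fewer libraries and thinned counts.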

Additional observations from a re-analysis of the deposited data

Results flagged for a closer look

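The share of uniquely placed counts outside genes was 89.7% with hnRNPU hairpin 1 and 86.6% with hnRNPU hairpin 2, against 21.8% with the hnRNPU control hairpin, which drew attention because these counts enter no gene's value. Lars2 had opposite directions in the knockdowns, above the control with both hnRNPU hairpins and below the control with both Bloodlinc hairpins, with an hnRNPU minus Bloodlinc log2 effect of 8.26. That difference was not tested, since Lars2 was chosen on the hnRNPU values, and the Bloodlinc direction turned against the other control hairpin (0.25).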

How the results depend on the processing

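No paired analysis was possible because each knockdown had 1 control library and equal hairpin numbers name different hairpins. Lars2 kept a positive hnRNPU log2 fold change in all 15 alternatives (5.66 to 7.63), and the median of the 9 others stayed below 0 there (−1.47 to −0.46), but ranged from −0.36 to 0.31 over 18 alternatives in the Bloodlinc comparison. The number of genes passing depended on the settings. In the hnRNPU comparison 135 passed, against 9 by limma-voom, 8 with a filter of 5 CPM in 2 libraries, 65 with robust estimation, 26 with library totals without TMM (added after the data were seen), 2340 against the other control hairpin, 1497 against 3 pooled controls, 7 to 59 with a hairpin left out, and 0 by edgeR with thinned counts (955 at an unadjusted p under 0.05). Scaling moved the split of higher and lower calls, which was 89 and 46, to 126 and 38 with DESeq2's size factors and 130 and 33 with upper quartile scaling. Of the 9 others, 2 passed against the other control (Iars2 and Nars2) and 1 against 3 pooled controls (Nars2, −1.75, adjusted p = 0.00868). In the Bloodlinc comparison 19 passed, against 5 by DESeq2, 2 with library totals without TMM, 5 with robust estimation, 1043 against the other control, 918 against 3 pooled controls and 0 to 63 with a hairpin left out. It was 0 by limma-voom (636 at an unadjusted p under 0.05), and by edgeR 0 with the 5 CPM filter (278), in a fit of 3 libraries (369), with thinned counts (303), without both hnRNPU hairpin libraries (504), and, added after the data were seen, without hnRNPU hairpin 1 (501) or 2 (497). The causes were not tested. With the Bloodlinc control or the hnRNPU control in place of the empty vector, 5 and 1 of the 10 genes differed by 2-fold.

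Signs turned for genes near 0. In the Bloodlinc comparison against the other control, log2 fold changes became 0.25 for Lars2, 0.78 for Iars2, 0.20 for Tars2, −0.54 for Vars2, 0.47 for Fars2 and 0.16 for Wars2, and against 3 pooled controls 0.41 for Iars2, 0.15 for Tars2, −0.32 for Vars2 and 0.11 for Fars2. Iars2 and Tars2 became 0.023 and 0.0079 with the 5 CPM filter, 0.017 and 0.0084 without the 20 most abundant genes, 0.012 and 0.0031 without both hnRNPU hairpin libraries, and 0.016 and 0.0076 without hnRNPU hairpin 1. Without TMM, Iars2, Mars2, Tars2 and Wars2 became 0.36, 0.31, 0.32 and 0.13. With thinned counts Iars2, Mars2, Tars2 and Nars2 became 0.059, 0.38, 0.23 and −0.051. With 1 Bloodlinc hairpin left out, Nars2 spanned −0.30 to 0.43, Iars2 −0.037 to 0.047, Mars2 −0.36 to 0.26 and Tars2 −0.38 to 0.30. In the hnRNPU comparison Wars2 became 0.013 by DESeq2, 0.016 with its size factors, 0.058 with upper quartile scaling, 0.065 with the 5 CPM filter and 0.034 in a fit of 3 libraries, and spanned −1.05 to 0.36 with 1 hairpin left out. Against the other control Fars2 became −0.26 and Sars2 0.84.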
